A study of Mus musculus with 12 samples.

Results

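G proteins carry the signal of a chemoattractant receptor into the cell, and RGS proteins (regulators of G protein signalling) end it. The 10 genes described here are the G alpha subunit genes Gna13, Gna12, Gnai2 and Gnai3, the small GTPase gene Rhoa, and the RGS genes Rgs1, Rgs2, Rgs10, Rgs14 and Rgs19. They were taken by name from the 56941 genes of the count table, and 9 of the 10 had enough counts to be tested, all but Rgs10. RNAseq libraries were made from B2 (IgD+IgM+) and memory B cells (MemB, IgD-IgM-), sorted from the peritoneal cavity (PerC) of control and GPR34 knock-in (KI) mice of the same litters, with 3 libraries in each of the 4 groups. KI mice combine Cd21-Cre with a Rosa26 allele in which a removable stop cassette stands before a truncated, gain-of-function Gpr34 and an IRES-GFP reporter. Cd21-Cre acts in mature B cells but not in every one of them, and no GFP gate is stated for the sort. The labels do not give the age or sex of the mice, or which of these alleles the control mice carried. The question asked of these data was whether the receptor allele, or the cell type, comes with other levels of these G protein and RGS transcripts.

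A receptor bound to its ligand loads GTP onto a G alpha subunit, which then parts from its beta gamma dimer, and each of them acts on effectors of its own. G alpha i, made from Gnai2 and Gnai3 in lymphocytes, inhibits adenylyl cyclase, and the dimers it releases activate PI3K gamma and Rac exchange factors, the route by which chemokine receptors drive migration. G alpha 12 and G alpha 13 bind RhoGEFs that load GTP onto RhoA, a route that opposes migration and confines germinal centre B cells. RGS proteins shorten the signal by speeding the hydrolysis of GTP on the alpha subunit. GPR34 is a receptor for lysophosphatidylserine, which the study describes as coupled to G alpha i. Which of the other proteins it uses in these cells was not tested.

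Libraries held between 29895068 and 39732124 counts, and ribosomal RNA took between 29.3% and 38.3% of them. Levels are given as CPM, counts scaled to a common size of the normalized library, on which 3 counts correspond to between 0.0734 and 0.102 CPM. Gpr34, the check of the genotype labels, lay between 3.42 and 6.87 CPM in control B2, 100.3 and 113 CPM in KI B2, 18.8 and 30.8 CPM in control MemB, and 132 and 168 CPM in KI MemB. B cell markers (Cd79a, Cd79b, Ms4a1, Pax5 and Cd22) summed to between 2498 and 2952 CPM in every library. T and NK cell markers (13 genes) summed to between 158 and 306 CPM in control MemB, 21.0 and 63.8 CPM in KI MemB, and 43.7 and 97.2 CPM in B2, and mast cell markers (5 of 6 listed genes were in the table) reached 241 CPM in control MemB replicate 3. Ighm and Ighd together, which define the sort gate, were lower in MemB than in B2 but still summed to between 2239 and 2897 CPM in control MemB, against 364 to 668 CPM in KI MemB. In each group the library numbered 3 came from a mouse of the other sex than libraries 1 and 2, by its Xist and Y-linked counts.

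The gene models of the members, in GENCODE M39 on GRCm39, lie on 8 chromosomes. Gna13 (ENSMUSG00000020611) is at chr11:109253598-109292195, Gna12 (ENSMUSG00000000149) at chr5:140744158-140816336, Gnai2 (ENSMUSG00000032562) at chr9:107491324-107512626, Gnai3 (ENSMUSG00000000001) at chr3:108014590-108053469 and Rhoa (ENSMUSG00000007815) at chr9:108182242-108215142. Rgs2 (ENSMUSG00000026360, chr1:143875076-143879899) and Rgs1 (ENSMUSG00000026358, chr1:144118034-144124980) are neighbours, 238.1 kb apart with Rgs13 between them. Rgs10 (ENSMUSG00000030844) is at chr7:127975345-128020482, Rgs14 (ENSMUSG00000052087) at chr13:55517258-55535857 and Rgs19 (ENSMUSG00000002458) at chr2:181330212-181335997. All are protein-coding genes. Rhoa overlaps Tcta on the other strand and holds a processed pseudogene on its own, Gna12 overlaps Amz1, and Rgs19 overlaps Tcea2. RSEM gives fractional counts where it splits a read between features. Estimated counts of Rhoa were not whole (more than 1e-09 from a whole number) in all 12 libraries and those of Gna13 and Gna12 in 10 each, whereas Gnai2, Gnai3, Rgs1, Rgs2, Rgs10 and Rgs19 had whole counts in every library.

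Promoter windows of RefSeq (GRCm38.p6, 250 bases before a start) were found for 7 of the 10 genes, and each matched a single place in GRCm39. Windows of 4 genes are shown, cut where the gene model begins: the sister subunits Gna13 and Gna12, of which Gna13 is the more abundant, Gnai3 as the G alpha i member with an entry, and Rgs2, the RGS gene that varied most among those measured in every library. Letters in capitals mark matches, on either strand, to the motifs searched, which were the TATA box TATAAA, the GC box GGGCGG, the CRE TGACGTCA, the E-box CACGTG and the CCAAT box CCAAT.
Gna13, chr11:109253370-109253597, plus strand: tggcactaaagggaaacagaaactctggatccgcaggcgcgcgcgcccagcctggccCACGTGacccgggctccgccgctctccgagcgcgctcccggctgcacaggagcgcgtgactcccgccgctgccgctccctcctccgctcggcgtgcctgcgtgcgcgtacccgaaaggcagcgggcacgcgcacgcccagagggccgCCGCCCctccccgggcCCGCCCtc
Gna12, chr5:140816337-140816436, minus strand: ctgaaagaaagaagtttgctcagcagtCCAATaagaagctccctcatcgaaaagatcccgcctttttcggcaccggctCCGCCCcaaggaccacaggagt
Gnai3, chr3:108053470-108053718, minus strand: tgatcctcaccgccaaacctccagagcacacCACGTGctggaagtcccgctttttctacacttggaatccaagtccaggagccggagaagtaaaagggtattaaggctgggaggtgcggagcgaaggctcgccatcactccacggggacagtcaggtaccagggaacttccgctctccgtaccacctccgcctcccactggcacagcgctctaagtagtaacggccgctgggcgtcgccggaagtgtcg
Rgs2, chr1:143879900-143880137, minus strand: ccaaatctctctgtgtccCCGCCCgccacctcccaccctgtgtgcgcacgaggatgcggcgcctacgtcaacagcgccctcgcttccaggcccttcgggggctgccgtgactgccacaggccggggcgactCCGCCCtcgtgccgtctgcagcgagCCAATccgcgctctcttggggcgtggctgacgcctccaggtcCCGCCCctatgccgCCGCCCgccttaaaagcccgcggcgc
The uncut Gna13 window held 33 CG dinucleotides, 2 GC boxes and an E-box, and the Gna12 window held 20 CG dinucleotides, 4 GC boxes and 2 CCAAT boxes. Rgs2 had 4 GC boxes and a CCAAT box, and Gnai3 had an E-box and no GC box. Over 32841 windows of that length, 32.7% held a GC box, 33.9% a CCAAT box, 6.0% an E-box, 12.4% a TATA box and 1.5% a CRE, and the median was 6 CG dinucleotides. No window of the 7 genes held the TATA box or the CRE letters, which says nothing of factors that bind other letters.

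Levels of different genes were compared per length, as counts per kb of the canonical transcript, scaled so that all genes of a library sum to the same total. On this scale Rhoa was highest in every group, with a mean level of 565 ± 180.4 (SD, n = 3) in B2 of control mice and 531 ± 24.9 in B2 of KI mice, and of 679 ± 43.7 in KI MemB and 473 ± 38.7 in control MemB. Gnai2 came second in level, at 545 ± 46.6 in KI MemB, 425 ± 58.1 in control MemB, 337 ± 94.1 in KI B2 and 328 ± 78.2 in control B2, and its range overlapped that of Rhoa in control MemB but not in the other 3 groups. The order of these 2 genes depended on the length taken, since Rhoa stood at 1.43 times Gnai2 by the canonical transcript and at 0.734 times by the union of all exons (a length tried after seeing the data), which adds long annotated Rhoa exons. Rgs19, Gnai3 and Gna13 followed in that order in each group, at mean levels between 59.6 and 168, and the ranges of Rgs19 and Gnai3 overlapped in 3 of the 4 groups. By exon union Gnai3 stood above Rgs19 in those 3 groups. Rgs14, Rgs2 and Gna12 formed the next tier, with mean levels between 4.11 and 27.7, and Gna13 lay above all 3 without overlap in every group. Rgs1 and Rgs10 had mean levels of at most 3.47 in any group.

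**Figure D1:**
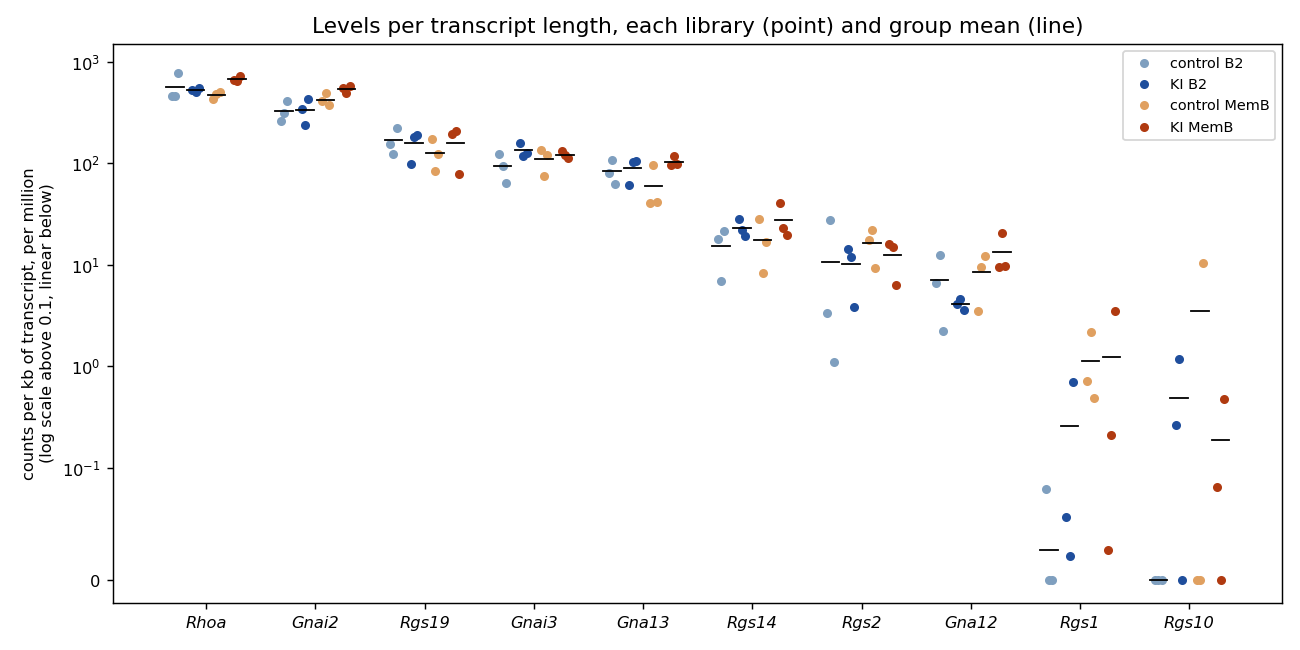
Level of each gene per transcript length (counts per kb, each library scaled to the same sum, log scale above 0.1 and linear below it) in each library (points, coloured by group), with the group mean as a black line. Rhoa and Gnai2 sit at the top, Rgs19, Gnai3 and Gna13 follow, and Rgs1 and Rgs10 are at or near 0 in most libraries.

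Within the G alpha i pair, Gnai2 took most of the transcripts. Its share of the summed Gnai2 and Gnai3 level per length was 77.2% ± 9.36 (SD, n = 3) in B2 and 79.2% ± 6.54 in MemB of control mice, and 70.7% ± 5.58 in B2 and 81.7% ± 1.75 in MemB of KI mice. The share lay between 67.1% and 77.2% in the KI B2 libraries and between 80.4% and 83.7% in the KI MemB libraries, without overlap, whereas the control groups overlapped. Gna13 took 92.9% ± 3.52 of the Gna12 and Gna13 sum in B2 and 86.7% ± 8.34 in MemB of control mice, and 95.4% ± 1.45 in B2 and 89.0% ± 3.31 in MemB of KI mice. Both KI B2 and KI MemB ranges of this share were narrow, 93.8% to 96.7% and 85.2% to 90.9%, and did not overlap, whereas those of control B2 (89.6% to 96.6%) and control MemB (77.1% to 92.0%) did. The summed level of both G alpha i transcripts was between 3.34 and 12.4 times that of both G alpha 12/13 transcripts in single libraries. Among the 5 RGS genes, Rgs19 made up 80.1% ± 7.01 of the summed level per length over the 12 libraries, and Rgs14 made up 11.3% ± 4.59. These shares were not tested, and they carry the error of the lengths used.

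**Figure D2:**
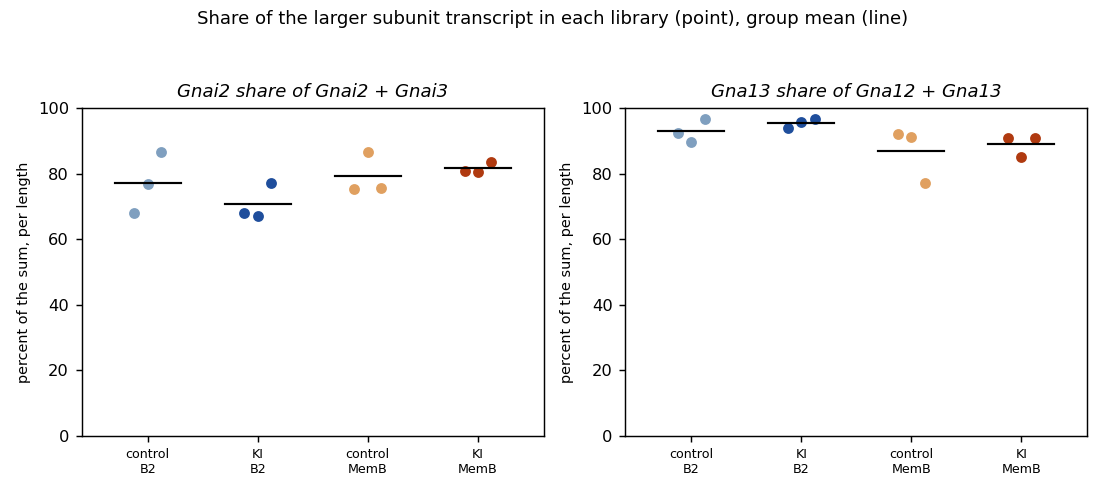
Share of Gnai2 in the Gnai2 plus Gnai3 level (left) and of Gna13 in the Gna12 plus Gna13 level (right), in percent of the sum per length, for each library (points) with the group mean (line). Gnai2 stays between 67.1% and 86.7% and Gna13 between 77.1% and 96.7% in all 12 libraries.

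Of the 9 genes tested, 1 passed the test (edgeR, adjusted p below 0.05) in 1 of 6 comparisons: Gnai2 was higher in MemB than in B2. In that comparison 1.36% of all 15148 genes tested passed, 0.918% of them in the higher direction. None of the 9 passed between KI and control in MemB, where 0.31% of all genes passed, and none between KI and control in B2, where 0.0066% passed. None passed in the difference between these KI effects (0.066% of all genes), in MemB against B2 in control mice (0.284%) or in KI mice (0.389%). At an unadjusted p below 0.05 there were 2 of 9 for KI against control in MemB (11.1% of all genes), 0 of 9 in B2 (5.74%) and 2 of 9, Gnai2 and Rgs1, for MemB against B2 (12.9%). The median log2 fold change of the 9 genes was 0.32 for KI against control in MemB (-0.03 over all genes tested), -0.01 in B2 (-0.03) and 0.33 for MemB against B2 (0.02). In bulk samples, fewer cells of a type and less RNA per cell cannot be told apart.

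**Figure D3:**
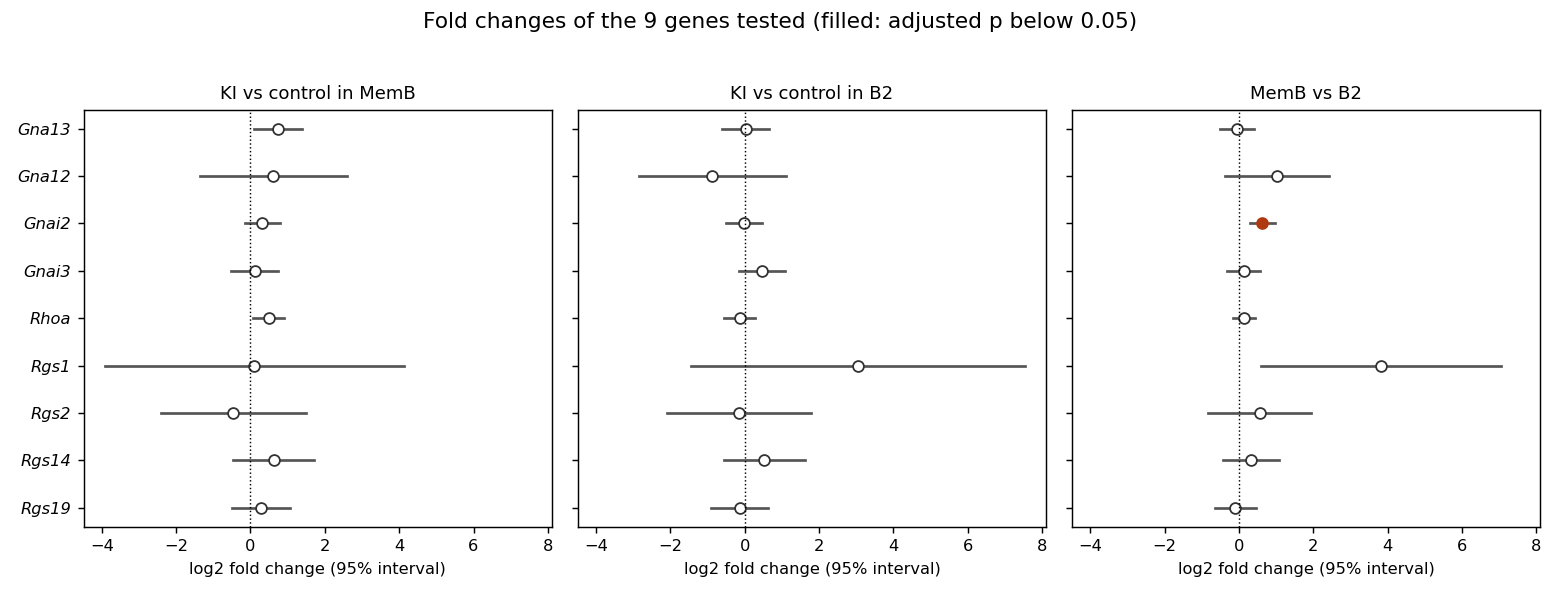
Log2 fold changes of the 9 genes tested, with 95% intervals (bars), for KI against control in MemB, KI against control in B2, and MemB against B2. The filled point is the 1 gene with an adjusted p below 0.05, Gnai2 in MemB against B2, at 0.63.

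Gnai2 encodes the main G alpha i subunit of B cells, through which chemokine receptors signal. Its level was 191, 222 and 284 CPM in control B2 and 229, 165 and 297 CPM in KI B2. In MemB it was 318, 381 and 263 CPM in control and 423, 341 and 437 CPM in KI. All 3 KI MemB libraries lay above all 3 KI B2 libraries, as did 7.3% of all genes tested, and control MemB replicate 3 lay within the B2 range. The level was 1.55-fold higher in MemB than in B2 averaged over the genotypes (log2 fold change 0.63, SE 0.17, 95% interval 0.29 to 0.97, adjusted p = 0.0492). This lies just under the threshold, and leaving out any of 8 single libraries (control B2 1 or 2, KI B2 1 or 2, control MemB 1 or 2, KI MemB 1 or 3) put the adjusted p between 0.0781 and 0.166. It was also past 0.05 with ribosomal RNA genes left out (0.0520), immunoglobulin genes left out (0.0516), DESeq2 (0.0590), upper quartile normalization (0.0864), the fit not robust (0.104) and detected genes as a covariate (0.230). B-1 cell markers (Cd5, Zbtb32, Spn, Bhlhe41, Cd9 and Plscr1) had sums that moved with the cell type, lying between 122 and 243 CPM in B2, 630.2 and 687 CPM in control MemB, and 468 and 530.3 CPM in KI MemB, with 3 of 6 passing in the higher direction. In KI mice 3 of the 6 had negative values, Cd5, Cd9 and Plscr1 being lower on average in MemB than in B2. Plasma cell markers (6 genes) summed to between 248 and 449 CPM in B2 and 401 and 641 CPM in MemB, with 1 of 6 higher. Of 6 germinal centre B cell markers tested, 1 passed in the higher and 1 in the lower direction, and 5 had positive values. Between KI and control in MemB, none of the 6 B-1 cell markers passed, and 1 of 6 plasma cell markers was higher. The part of such cells in the MemB differences of Gnai2 and of the partner genes was not tested. Within genotypes, the log2 fold change of Gnai2 was 0.46 in control mice (adjusted p = 0.488) and 0.80 in KI mice (interval 0.32 to 1.28, adjusted p = 0.174). Between KI and control, the Gnai2 difference was 0.32 in MemB (interval -0.16 to 0.80) and -0.01 in B2 (interval -0.49 to 0.47), and in both cell types the libraries overlapped.

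Gnai3 encodes the other abundant G alpha i subunit. Its level was 129, 96.9 and 62.3 CPM in control B2, 155, 116 and 126 CPM in KI B2, 151, 83.8 and 122 CPM in control MemB, and 143, 119 and 122 CPM in KI MemB. The 4 groups overlapped throughout. Its log2 fold change was 0.11 between KI and control in MemB, 0.46 in B2 (interval -0.17 to 1.09) and 0.13 between MemB and B2 (interval -0.32 to 0.57), so that a Gnai3 difference of the size seen for Gnai2 lay outside the last interval. The 3 genes whose centred log2(CPM + 1) values lay closest to those of Gnai2 over the 12 libraries were Mif, Rac2 and Sri. Their root mean square differences were 0.213, 0.222 and 0.230, where the median over all genes tested was 0.904. The values were not scaled, so genes that vary little lie nearer to Gnai2 by this measure. None of the 3 passed between MemB and B2 (adjusted p = 0.173, 0.128 and 0.450). Rac2 is a GTPase of the Rac route, and Mif a cytokine.

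Gna13 encodes G alpha 13, the subunit that carries the S1PR2 signal in germinal centre B cells. Its level was 161, 213 and 118 CPM in control B2 and 114, 190.4 and 197 CPM in KI B2. It was 86.0, 206 and 79.3 CPM in control MemB and 198, 222 and 201 CPM in KI MemB. Control MemB held both the lowest values and a library (replicate 2) within the KI range, so the groups overlapped, and the KI MemB libraries were close together (207 ± 12.9 CPM, SD, n = 3). In MemB, KI differed from control by 0.74 on the log2 scale (SE 0.32, interval 0.10 to 1.38), with an unadjusted p of 0.0249 and an adjusted p of 0.370. It was 0.03 in B2 (interval -0.61 to 0.67), and the difference between the effects was 0.71 (interval -0.19 to 1.62, adjusted p = 0.717). Without control MemB replicate 2 the value in MemB was 1.32, and without any other single library it lay between 0.51 and 0.78. Between MemB and B2 it was -0.05.

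Gna12 encodes the related G alpha 12 and was low. Its level was 7.36, 13.6 and 2.30 CPM in control B2, 4.16, 4.80 and 3.78 CPM in KI B2, 4.12, 11.1 and 13.01 CPM in control MemB, and 10.98, 21.3 and 11.1 CPM in KI MemB. The 3 KI MemB libraries lay above all 3 KI B2 libraries, as did 7.3% of all genes tested, while the control groups overlapped. The log2 fold change of Gna12 between MemB and B2 was 1.77 in KI mice (interval -0.25 to 3.79, adjusted p = 0.552) and 0.28 in control mice. Between KI and control it was 0.62 in MemB (interval -1.35 to 2.58) and -0.87 in B2 (interval -2.85 to 1.10). Without control B2 replicate 2 the Gna12 value was -0.19 for KI against control in B2 and 0.96 for MemB against B2 in control mice, and the latter was -0.15 without control B2 replicate 3. Replicates of Gna12 varied with a biological coefficient of variation of 79.5%, against 32.4% for Gna13.

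Rhoa encodes the GTPase that RhoGEFs load once G alpha 13 has engaged them. Its level was 331, 317 and 514 CPM in control B2, 343, 337 and 375 CPM in KI B2, 322, 365 and 345 CPM in control MemB, and 484, 436 and 529 CPM in KI MemB. All 3 KI MemB libraries lay above all 3 control MemB libraries, as did 6.01% of the genes tested, and above all 3 KI B2 libraries, as did 7.3%. Control B2 replicate 3 reached the KI MemB range. The log2 fold change of Rhoa between KI and control was 0.49 in MemB (1.40-fold, SE 0.20, interval 0.07 to 0.91), with an unadjusted p of 0.0224 and an adjusted p of 0.366. It was -0.14 in B2 (interval -0.55 to 0.28), and the difference between the effects was 0.63 (interval 0.04 to 1.22, unadjusted p = 0.0367, adjusted p = 0.554). Rhoa thus stood higher in 3 of 3 KI MemB libraries by an amount that did not pass the test over all genes. It had the narrowest replicate spread of the 9 genes, a biological coefficient of variation of 26.3%, and its difference between MemB and B2 was 0.14 (interval -0.15 to 0.44).

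Rgs1 and Rgs2 belong to the R4 group of small RGS proteins, of which Rgs1 is induced in activated lymphocytes and dampens chemokine responses. Rgs1 had 3, 0 and 0 counts in control B2, 2, 1 and 32 in KI B2, 33, 97 and 19 in control MemB, and 1, 8 and 135 in KI MemB. In control mice every MemB library lay above every B2 library (6.32% of all genes tested did so), and the mean of 1.45 CPM in control MemB was at least 14.8-fold higher than 3 counts per library in control B2 (at least 7.71-fold without control MemB replicate 2, a bound computed after seeing the data). In KI mice the cell types overlapped, and most of the counts of each came from the library numbered 3. The log2 fold change of Rgs1 between MemB and B2 was 3.82 (interval 0.60 to 7.04, unadjusted p = 0.0215, adjusted p = 0.273). Of the 5 libraries with over 10 counts of Rgs1, 4 were MemB, so that it entered the test mainly through the cell type in which it was higher, and it was not tested at a minimum count of 50. Over the alternatives the adjusted p ran from 0.0456, with DESeq2's test, to 0.626. The value of Rgs1 was 2.11 without KI MemB replicate 3, and 5.47 and 5.17 without control B2 replicate 1 and KI B2 replicate 3. Between KI and control in MemB it was 0.10 with an interval from -3.92 to 4.12, too wide to bound a change. When each library was left out in turn, that value ranged from -3.33 to 1.05. T and NK cell markers were also high in control MemB, where their sum was at least 158 CPM, and their part in the Rgs1 values was not tested.

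Rgs2, which acts on G alpha q and G alpha s routes, was measured in every library, and its highest library stood at 25.8 times its lowest, the widest such ratio of the 8 genes with counts in every library. It was 3.29, 26.1 and 1.01 CPM in control B2, 12.9, 10.9 and 3.55 CPM in KI B2, 18.1, 22.9 and 8.63 CPM in control MemB, and 16.2, 13.6 and 6.29 CPM in KI MemB. The lowest value of each group was in the library numbered 3, from the mouse of the other sex, and the part of sex in this was not tested. Its log2 fold change was -0.46 between KI and control in MemB (interval -2.41 to 1.49), -0.15 in B2 (interval -2.10 to 1.79) and 0.55 between MemB and B2 (interval -0.82 to 1.93). Without control B2 replicate 2, which held the highest value, the Rgs2 difference was 2.08 in B2 and 1.67 between MemB and B2, and neither passed. The immediate early genes, 12 transcripts that rise within minutes of stimulation or handling, summed to between 174 and 410 CPM, and none of them passed the test in MemB against B2 or between KI and control in MemB.

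Rgs14 and Rgs10 belong to the R12 group, which acts on G alpha i. Rgs14, a scaffold that also binds free G alpha i and Ras-family GTPases, was 33.5, 12.8 and 37.7 CPM in control B2, 49.1, 38.1 and 34.3 CPM in KI B2, 55.3, 16.7 and 30.1 CPM in control MemB, and 78.4, 41.1 and 37.4 CPM in KI MemB. The groups overlapped, and its log2 fold change was 0.62 between KI and control in MemB (interval -0.46 to 1.70), 0.53 in B2 (interval -0.55 to 1.61) and 0.33 between MemB and B2. Rgs10 had no count in control B2, which allows up to 3 counts in each of those libraries, and 3, 18 and 0 counts in KI B2. It had 0, 0 and 133 counts in control MemB and 1, 0 and 6 in KI MemB. Most Rgs10 counts of the series were thus in control MemB replicate 3. That library had the highest sum of mast cell markers (241 CPM) and was the only one with more than 2 counts of Gnai1, at 74, a gene named after its values were seen. Other libraries did not follow this order. KI B2 replicate 3 (mast cell sum 74.9 CPM) and control MemB replicate 1 (45.0 CPM) had no Rgs10 count. KI B2 replicate 2, with 18 counts, had a mast cell sum of 1.15 CPM. The part of mast cells in the Rgs10 counts was not tested. Rgs10 was removed by the filter on low counts and no fold change is given.

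Rgs19, of the RZ group that acts on G alpha i and G alpha z, was the most abundant RGS transcript per length. It was 92.2, 71.9 and 125 CPM in control B2, 54.3, 100.4 and 108 CPM in KI B2, 108, 53.6 and 70.0 CPM in control MemB, and 119.8, 117 and 47.1 CPM in KI MemB. Each group spanned about the same range. Its log2 fold change was 0.29 between KI and control in MemB (interval -0.49 to 1.07), -0.14 in B2 (interval -0.92 to 0.64) and -0.10 between MemB and B2 (interval -0.65 to 0.45). The last interval runs from 0.636-fold to 1.36-fold, so a larger difference between the cell types lay outside it.

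**Figure D4:**
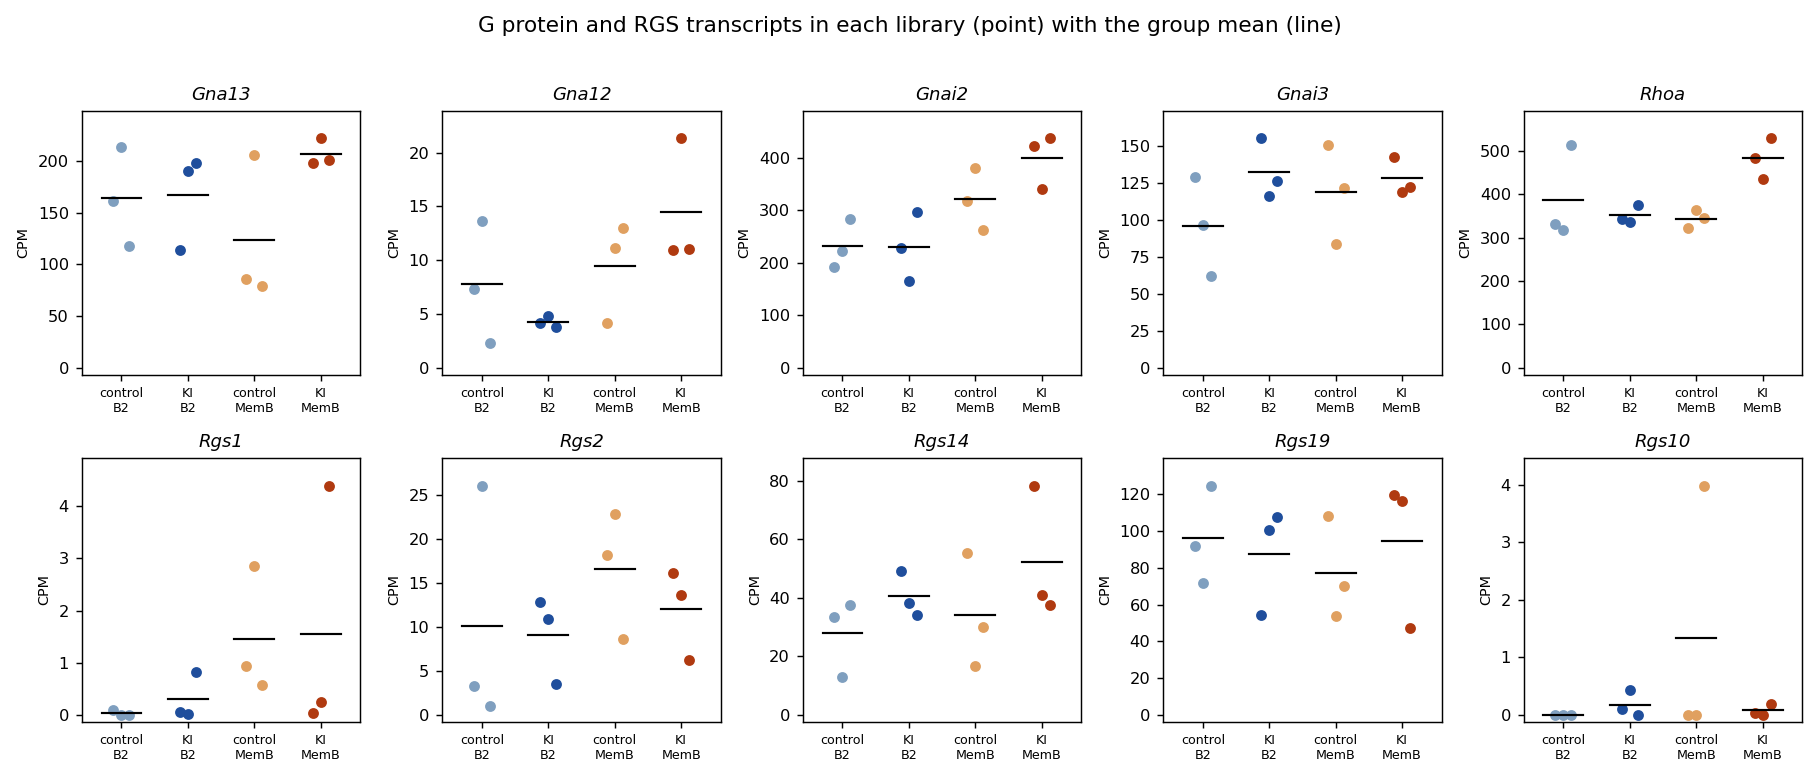
CPM (vertical axis, from 0) of each of the 10 genes in each library (points) by group, with the group mean (line). Gnai2 has its highest group means in KI MemB and control MemB, Rhoa is higher in all 3 KI MemB than in all 3 control MemB libraries, and single libraries carry most of the Rgs1 and Rgs10 signal.

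The partners of these genes were taken from 9 lists of 91 genes, of which 72 were tested. Between KI and control in MemB, 1 partner passed in the higher direction, Gpr34 itself, and 1 in the lower direction, Arhgef11 (0.31% of all genes passed). Between KI and control in B2, Gpr34 alone passed, and it was the 1 gene of all those tested to do so (0.0066%). Between MemB and B2, 5 passed in the higher direction (Gpr34, Pik3r5, Pik3r6, Prex1 and Gng3) and 1 in the lower direction (Arrb1), where 1.36% of all genes passed and 0.918% were higher. The median log2 fold change of the 72 was 0.05 between KI and control in MemB (-0.03 over all genes) and 0.23 between MemB and B2 (0.02 over all genes).

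Arhgef11 encodes PDZ-RhoGEF, an exchange factor that joins G alpha 12/13 to RhoA. Its level was 16.3, 27.8 and 21.7 CPM in control B2, 26.4, 14.4 and 14.7 CPM in KI B2, 35.2, 37.2 and 33.7 CPM in control MemB, and 3.27, 3.62 and 5.73 CPM in KI MemB. The KI MemB libraries lay below every other library, and control MemB lay above all of them (6.08% of all genes tested lay lower in KI than in control MemB without overlap). In MemB, KI differed from control by -3.07 on the log2 scale (SE 0.69, interval -4.48 to -1.66, adjusted p = 0.0373), and in B2 it was -0.25. The difference between these effects was -2.82 (interval -4.70 to -0.95) and did not pass (adjusted p = 0.361). Leaving out any MemB library, control B2 2, or KI B2 1 or 2 put the adjusted p between 0.0517 and 0.218. It was 0.167 with only the groups compared, 0.0555 with the fit not robust and 0.0512 with each library's count of detected genes as covariate. With the replicate number as a block it was 0.0575, and without the libraries numbered 3 it was 0.182. DESeq2, the study's method, kept the call (adjusted p = 2.75e-12), and called 785 of all genes here against 47 with edgeR. The other 2 exchange factors listed, Arhgef1 (p115-RhoGEF, the main one of lymphocytes) and Arhgef12 (LARG), passed in none of the 6 comparisons. Both are named after their values were seen, and Arhgef1 lay between 222 and 367 CPM over all libraries. In the same comparison 2 of 11 T and NK cell markers tested fell and all 11 had negative values, 1 of 3 mast cell markers and both genes of the sort gate fell, 1 of 6 plasma cell markers rose, and 5 of 6 B-1 cell markers had negative values with none passing. Their part in the Arhgef11 value was not tested.

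Among the effectors of G alpha i and its beta gamma dimers, 3 of 12 tested rose from B2 to MemB, as did 0.918% of all genes. Pik3r5, the p101 subunit that ties PI3K gamma to beta gamma, lay between 56.9 and 109 CPM in B2 and between 131 and 329 CPM in MemB, without overlap (1.26% of all genes tested did not overlap). Its log2 fold change was 1.56 (SE 0.20, adjusted p = 1.34e-05), with 1.57 in control and 1.55 in KI mice. Pik3r6, the alternative p84 subunit, rose by 4.87 on the log2 scale (SE 1.05, adjusted p = 0.0092) from at most 0.843 CPM in B2 to 0.654, 1.03 and 17.2 CPM in control MemB and between 6.25 and 26.3 CPM in KI MemB. A pair of the control MemB libraries thus stood near the B2 level, and without control MemB 3 the value was 3.42 (adjusted p = 0.0912). Prex1, a Rac exchange factor that beta gamma activates, rose by 0.98 on the log2 scale (SE 0.25, adjusted p = 0.0449), from 63.4 ± 27.4 CPM in control B2 to 105 ± 24.3 CPM in control MemB and from 64.5 ± 23.0 to 152 ± 29.9 CPM in KI mice (SD, n = 3). Leaving out any of 8 single libraries (control B2 2 or 3, KI B2 2 or 3, control MemB 1 or 3, KI MemB 1 or 3) put the adjusted p of Prex1 between 0.0591 and 0.124, and it was 0.0806 with upper quartile normalization, 0.0862 with the fit not robust and 0.238 with the covariate. With the covariate Pik3r6 was at 0.0780.

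Of 12 beta and gamma subunit genes tested, Gng3 alone passed between MemB and B2 (log2 fold change 5.66, SE 1.37, adjusted p = 0.0255). It had 0 to 3 counts in control B2 and 3 to 9 in KI B2, and its MemB level rested on KI MemB 1 and 2 (33.3 and 6.65 CPM) and control MemB 2 (3.43 CPM), the other 3 MemB libraries being at 0.284 CPM or less. Gng3 thus entered the test through MemB libraries alone, the cell type in which it was high, and its fold change is set against counts near the floor. Its log2 fold change was 4.28 without control MemB 2 and 4.67 without KI MemB 1. Leaving out either of these or any B2 library put its adjusted p between 0.0518 and 0.199, and it was 0.0544 with the fit not robust and 0.0759 with the covariate. The study had 3 control and 3 KI mice, so the B2 and MemB libraries of a genotype shared mice. Those numbered 3, the only ones of their sex in each group, came from 1 mouse per genotype. The labels do not say how the libraries numbered 1 and 2 were paired, and the main test took no account of shared mice. With genotype and number as a mouse block, the adjusted p for MemB against B2 was 0.361 for Gng3, 0.062 for Pik3r6 and 0.0531 for Arrb1, and 0.0314 for Gnai2. Of 7 receptor kinases and arrestins, Arrb1 (beta-arrestin 1, which takes receptors off their G proteins) passed and was lower in MemB. It lay between 28.4 and 94.8 CPM in B2 and between 9.16 and 24.0 CPM in MemB, without overlap, a log2 fold change of -1.72 (SE 0.41, adjusted p = 0.0211). Without control B2 3, KI B2 2 or 3, or KI MemB 2 the adjusted p of Arrb1 lay between 0.0555 and 0.140, and with the covariate it was 0.166. None of the 4 tested of 14 other RGS genes and none of 7 other G alpha subunit genes passed in any of the 6 comparisons.

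**Figure D5:**
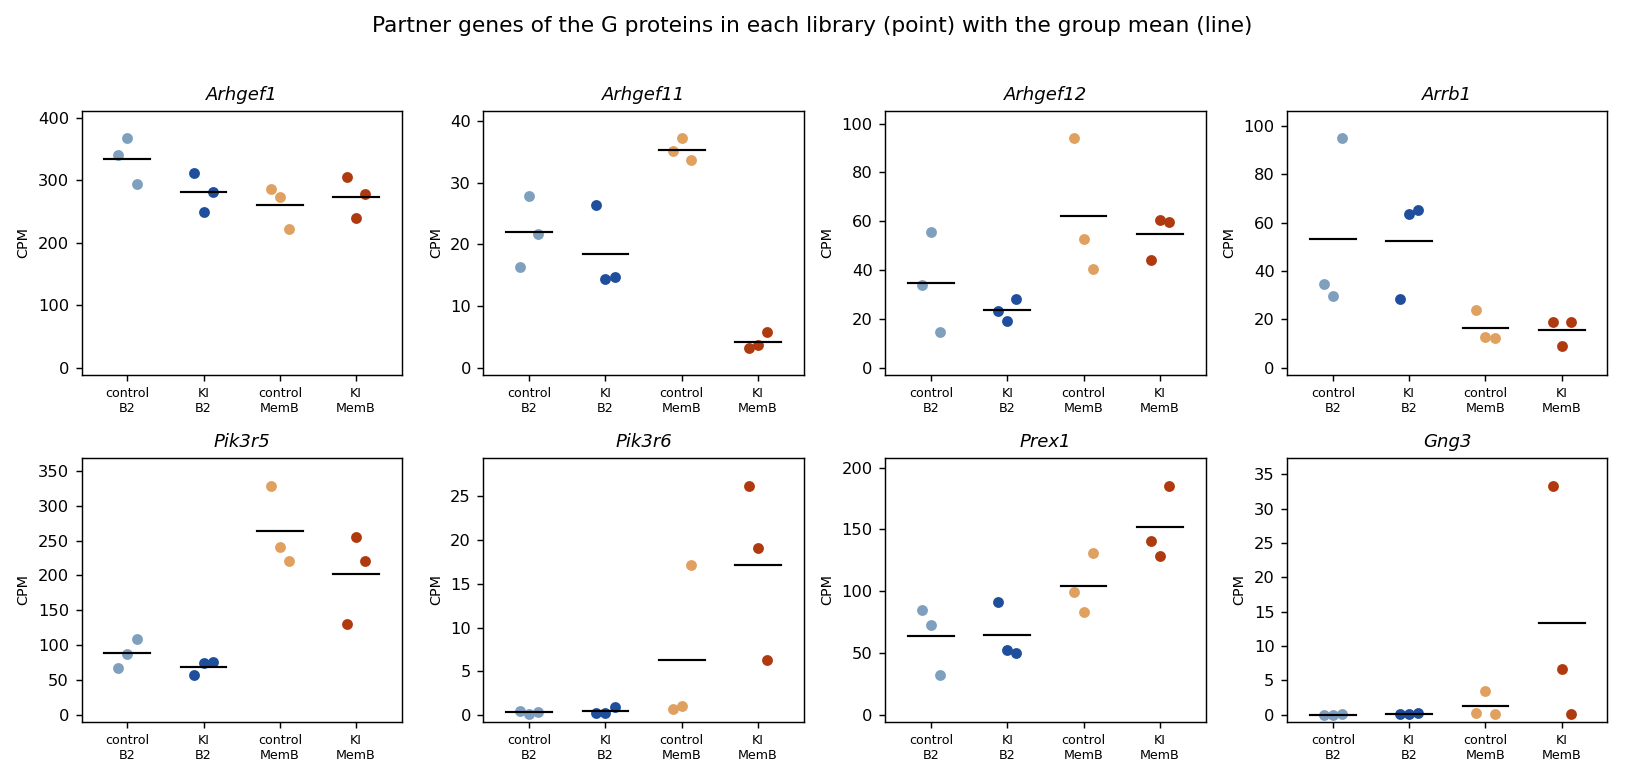
CPM (vertical axis, from 0) of 8 partner genes in each library (points) by group, with the group mean (line): the RhoGEF genes Arhgef1, Arhgef11 and Arhgef12, Arrb1, the PI3K gamma subunits Pik3r5 and Pik3r6, Prex1 and Gng3. Arhgef11 is lowest in KI MemB, while Pik3r5 and Arrb1 separate both MemB groups from both B2 groups.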

How the data were processed

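Bulk RNAseq of 12 libraries was analysed. Per the labels' processing notes, the authors used FastQC 0.12.1, cutadapt 4.5, STAR 2.7.11a with mm39 and RSEM 1.3.3, and they deposited RSEM expected counts per gene, not normalized, in a single table with 0 columns left unmatched. Annotation release is not given in the sources used here. Expected counts were rounded. RSEM splits reads between similar or overlapping genes, and no strand setting is stated, so antisense and overlapping partners cannot be told apart. Totals per library, 29895068 to 39732124, limit the precision of low genes. Floors of 3 counts cover counting error only, since no molecular identifiers were used, whereas the intervals of fold changes hold the spread between libraries.

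edgeR 4.0.16 in R 4.3.3 fitted robust quasi-likelihood models of 4 group means after TMM normalization, on genes kept by filterByExpr (minimum count 10), and p-values were adjusted (Benjamini-Hochberg) over 15148 genes. The study used DESeq2, which served here as an alternative (1.42.0). An SE is the log2 fold change divided by the square root of F. CPM uses TMM library sizes. Levels per length use GENCODE M39 canonical transcripts without 3 ribosomal RNA genes. The fits were tested on simulated data. The members, partner lists and tests were chosen with earlier results of these data known. Named genes are all members, Gpr34, partners that passed in the KI comparisons, and up to 10 that passed in MemB against B2. Replicates of a group differed by more than sampling noise. No sample was left out.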

Additional observations from a re-analysis of the deposited data

How the results depend on the processing

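Gnai2 was the 1 member past the threshold in MemB against B2, and 14 of 24 alternatives ended that call. The number of members passing was 0 with upper quartile normalization, with the fit not robust, with ribosomal RNA genes left out, with immunoglobulin genes left out, and with genes detected as a covariate, and it ranged from 0 to 1 when each library was left out in turn. Over 24 alternatives the adjusted p of Gnai2 lay between 0.0257 and 0.230, its log2 fold change lay between 0.54 and 0.87, and 10 of the 24 passed. DESeq2 also gave a count of 1, but for Rgs1 (adjusted p = 0.0456) in place of Gnai2 (adjusted p = 0.059). The other 5 comparisons had no member past the threshold under any alternative run, so 132 of 145 alternative counts equalled the reported ones. Cause was not tested.

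Deviations of same-numbered libraries from their group means had correlations from -0.00395 to 0.0281 over all genes tested. Replicates varied widely (median biological coefficient of variation 79.1%), so low correlations cannot decide whether libraries shared a mouse. The main test did not take the numbers as pairs, although B2 and MemB numbered 3 of a genotype came from 1 mouse by their sex. For the other numbers the labels do not give the pairing. With the replicate number as a block, the adjusted p of Gnai2 was 0.0434, and with genotype and number as a mouse block it was 0.0314. Arhgef11 was at 0.0575 with the replicate block, Gng3 at 0.202 with the replicate block and 0.361 with the mouse block, and Pik3r6 at 0.062 and Arrb1 at 0.0531 with the mouse block. Without the libraries numbered 3, Gnai2 (0.0359) and Gng3 (0.0170) passed and Pik3r6, Arhgef11, Arrb1 and Prex1 (0.103, 0.182, 0.325 and 0.435) did not. With DESeq2's test, Arhgef11 (2.75e-12), Pik3r6 (2.76e-07), Gng3 (3.6e-05), Arrb1 (0.00153) and Prex1 (0.0267) passed. Over all genes, DESeq2 called 785 against 47 in KI against control MemB, 194 against 1 in B2, 941 against 206 in MemB against B2, 691 against 43 of these in control and 652 against 59 in KI mice, and 426 against 10 in the difference. Other all-gene counts that moved by over 1.5 times were, for KI against control in MemB, 97 with no filter on low counts, 23 with the fit not robust, 16 with only the groups compared, 31 with genes detected as a covariate and 24 without the libraries numbered 3. For MemB against B2 they were 103 with the covariate and 98 without the libraries numbered 3, in control mice 104 with no filter, 25 not robust and 19 without those libraries, and in KI mice 114, 38 and 30, with 16 under the covariate. In B2, KI against control gave 8 with no filter and 2 without those libraries. The difference gave 45 with no filter, 4 not robust, 2 with the covariate, 5 with upper quartile normalization, 6 with the replicate block and 3 without immunoglobulin genes. Leaving out 1 library gave 17 (KI MemB 1) to 55 for KI against control in MemB, with 20, 24 and 28 without control MemB 2, KI MemB 3 and control MemB 1. For MemB against B2 it gave 133 (KI B2 1 or 2) to 197, in control mice 20 (control B2 1) to 47, with 22, 25, 27 and 27 without control B2 3, control MemB 1, control B2 2 and control MemB 3, and in KI mice 29 (KI B2 2) to 65, with 31, 36 and 37 without KI B2 1, KI MemB 1 and KI B2 3. For KI against control in B2 it gave 1 to 2 (KI B2 3), and for the difference 5 (control B2 2) to 10, with 6 without control B2 3 or KI B2 3. Counting error was widest for Rgs1 and Rgs10, which had 3 counts or fewer in 6 and 9 of the 12 libraries.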
